A study of Homo sapiens with 26 samples.

Results

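The 6 control libraries of a 26-library RNA sequencing series were compared with each other, to describe what 3 established human pancreatic ductal adenocarcinoma (PDAC) cell lines express when the transcription factor gene HNF4A has been neither induced nor repressed. They were chosen by their labels: the NC libraries of Panc10.05, the NC libraries of BxPC3 and the sgNC libraries of ASPC1, the line usually written AsPC-1, with 2 libraries each. In the rest of the series, the HNF4α isoforms P1-a2 or P2-a8 were expressed from doxycycline-inducible constructs in Panc10.05 and BxPC3, and CRISPR interference, in which an inactive Cas9 lowers transcription at the promoter a guide RNA binds, was directed at P1, P2 or both in ASPC1. By their titles, the Panc10.05 controls carry GFP and the BxPC3 controls are marked EV. They received doxycycline at 25 ng/mL and 500 ng/mL. The ASPC1 controls carry the guide sgNC, and their labels give no doxycycline. All lines were grown in the same medium, and the labels do not say whether a line was a clone or a pool. Cell line, control construct, doxycycline and sequencing project changed together, so their parts in any difference below cannot be told apart. Nothing in the labels says that the 2 libraries of a line came from separate cultures, so p-values measure only the spread between these libraries, which may be technical.

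HNF4α is a nuclear receptor that drives gene programs of liver and gut epithelium, and it works in a network with FOXA and GATA factors. PDAC is commonly divided into a classical subtype, with gut-like and endodermal genes such as GATA6 and HNF4A, and a basal-like subtype, with keratins and other genes of squamous epithelium. HNF4A transcripts start at either of 2 promoters, P1 or P2. Each count covers a whole gene, so transcripts of the 2 promoters are added together. In these bulk libraries, fewer cells with a transcript and less RNA per cell cannot be told apart.

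The control libraries held 26369154 to 41565667 counts each. Reads of the mitochondrial genome made up 5.51% to 6.29% of counts in Panc10.05 and BxPC3 and 8.37% to 9.24% in ASPC1; the part of this shift in the differences below was not tested. Of the 18339 genes with enough counts to test, 13602 (74.2%) differed between BxPC3 and Panc10.05, 13216 (72.1%) between ASPC1 and Panc10.05 and 13344 (72.8%) between ASPC1 and BxPC3, at an adjusted p under 0.05 by edgeR's quasi-likelihood test. Of all genes tested, 41.4%, 41.3% and 40.2% passed and also differed by at least 2-fold. In each pair of lines most genes thus passed. By direction, 38.7% of all genes tested passed as higher and 35.4% as lower in BxPC3 than in Panc10.05. In ASPC1, 36.2% were higher and 35.9% lower than in Panc10.05, and 34.5% higher and 38.2% lower than in BxPC3. Each count of list members below is to be read against these percentages. The genes tested in a list are not all its members, since a gene silent in every control library was not tested. The median log2 fold change over all genes tested was 0.03, 0.00 and -0.04 in the 3 comparisons. Levels are given in CPM, counts per 1000000 after scaling, and are to be compared between libraries and not between genes.

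The median gene differed between lines by 0.797, 0.786 and 0.763 on the log2 scale (absolute difference, in the order above). Between the 2 libraries of a line it differed by 0.117 in Panc10.05, 0.124 in BxPC3 and 0.149 in ASPC1. Expressing P1-a2 moved the median gene by 0.401 in Panc10.05 and 0.260 in BxPC3, and the guides to both promoters moved it by 0.283 in ASPC1. The lines thus stood further apart than any HNF4A group stood from the control of its own line, although the number of libraries behind each median differs.

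**Figure D1:**
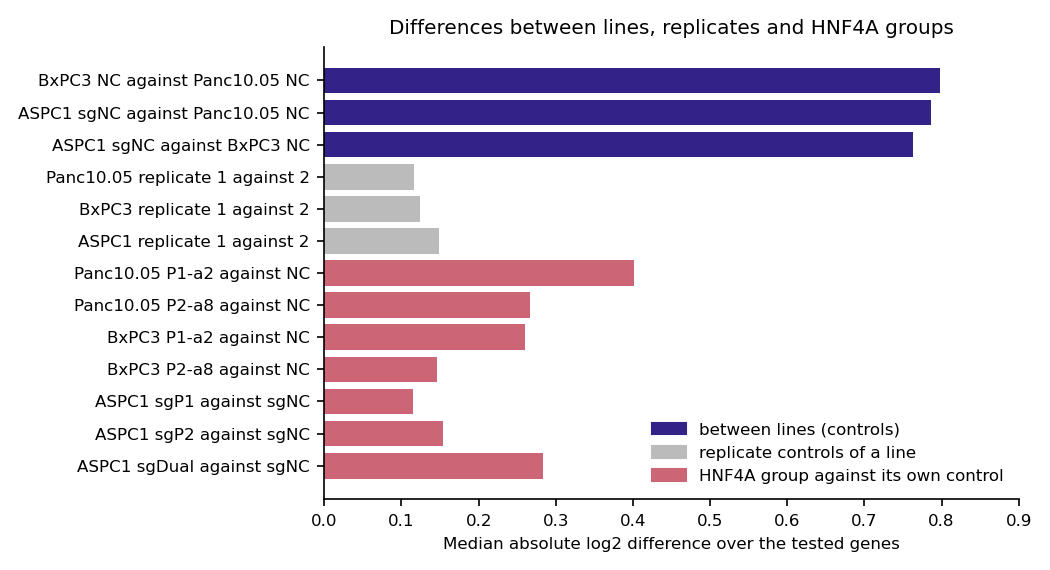
Bars give the median absolute log2 difference over the 18339 tested genes between the control libraries of the lines, between the 2 control libraries of 1 line, and between each HNF4A group and its own control. The 3 bars between lines lie between 0.763 and 0.797, above every other bar.

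HNF4A and several other transcription factors of the endoderm were far higher in ASPC1 than in the other lines, although the list as a whole also separated BxPC3 from Panc10.05. HNF4A, whose level defines the lines as HNF4A-low and HNF4A-high and is given here as a description, was at 0.225 and 0.0538 CPM in Panc10.05 NC, 1.11 and 0.475 CPM in BxPC3 NC and 215 and 231 CPM in ASPC1 sgNC. These are 10 and 2 counts in Panc10.05, 29 and 17 in BxPC3 and 6494 and 6846 in ASPC1. The Panc10.05 and BxPC3 levels are those of a gene close to silent. Both counts were higher in BxPC3, but they are few, and no conclusion is drawn from the order of these 2 lines. Fold changes against a line with 0 counts are lower bounds, computed against 3 counts per library. List medians are also given with such genes at their bound. Genes at 3 counts or fewer in every control library of both lines compared are left out of these second medians. Some of them thus cover fewer genes than the median beside them and can be larger for that reason.

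Several further factors of gut and liver were highest in ASPC1. CREB3L3, a membrane-bound factor of lipid metabolism, was at 0.248 and 0.135 CPM in Panc10.05 NC, 0.229 and 0.0279 CPM in BxPC3 NC and 279 and 328 CPM in ASPC1 sgNC. NR1I2, the xenobiotic receptor PXR, was at 0 counts in both Panc10.05 NC libraries, 0.344 and 0.168 CPM in BxPC3 NC and 84.8 and 97.8 CPM in ASPC1 sgNC. ONECUT3 was at 0.0269, 0.174 and 33.0 CPM on average in Panc10.05, BxPC3 and ASPC1, in that order. In the same order the intestinal factor CDX2 was at 0, 2.13 and 24.1 CPM, the nuclear receptor NR5A2 at 0.169, 0.596 and 31.1 CPM and the pancreas and duodenum factor PDX1 at 0.479, 2.09 and 16.8 CPM. All of these were higher in ASPC1 than in both other lines past the threshold, with adjusted p of at most 1.63e-06. Of the 31 endoderm factors listed, 25 were tested. In ASPC1 against Panc10.05, 17 were higher and 5 lower, beside 36.2% and 35.9% of all genes tested (median 3.18, or 3.23 with bounds). Against BxPC3, 15 were higher and 9 lower in ASPC1, beside 34.5% and 38.2% of all genes (median 1.24). In BxPC3 against Panc10.05, 16 were higher and 6 lower, beside 38.7% and 35.4% (median 2.16). 5 of the list, among them GATA5, CDX1, SOX17 and ISX, had 3 counts or fewer in every control library.

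Unlike HNF4A, none of FOXA1, FOXA2, GATA4 and GATA6 was highest in ASPC1, although GATA6 was higher there than in Panc10.05. FOXA2, a pioneer factor of endoderm, was at 0.901 and 0.754 CPM in Panc10.05 NC, 24.5 and 25.3 CPM in BxPC3 NC and 0 counts in both ASPC1 sgNC libraries. The HNF4A-high line thus had no count of it. FOXA1 was at 3.11 and 3.39 CPM in Panc10.05 NC, 80.1 and 72.8 CPM in BxPC3 NC and 1.12 and 1.99 CPM in ASPC1 sgNC (log2 fold change -5.62 with SE 0.16, adjusted p = 1.14e-18 for ASPC1 minus BxPC3). GATA6, the factor most used to mark classical tumours, was at 6.51 and 6.59 CPM in Panc10.05 NC, 74.9 and 84.0 CPM in BxPC3 NC and 53.8 and 65.1 CPM in ASPC1 sgNC. It was higher in BxPC3 and in ASPC1 than in Panc10.05 (log2 fold change 3.60 with SE 0.11, adjusted p = 8.17e-19; log2 fold change 3.18 with SE 0.11, adjusted p = 7.45e-18). ASPC1 was slightly lower than BxPC3 (log2 fold change -0.42 with SE 0.09, adjusted p = 0.000347). GATA4 ran the other way, with 19.3, 2.30 and 8.79 CPM in Panc10.05, BxPC3 and ASPC1. The epithelial factors KLF5 and ELF3 were at 27.0, 636 and 263 CPM and at 14.6, 96.2 and 223 CPM in the same order. SPDEF, a factor of goblet cells, was above the floor in BxPC3 alone, at 15.1 and 11.99 CPM.

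**Figure D2:**
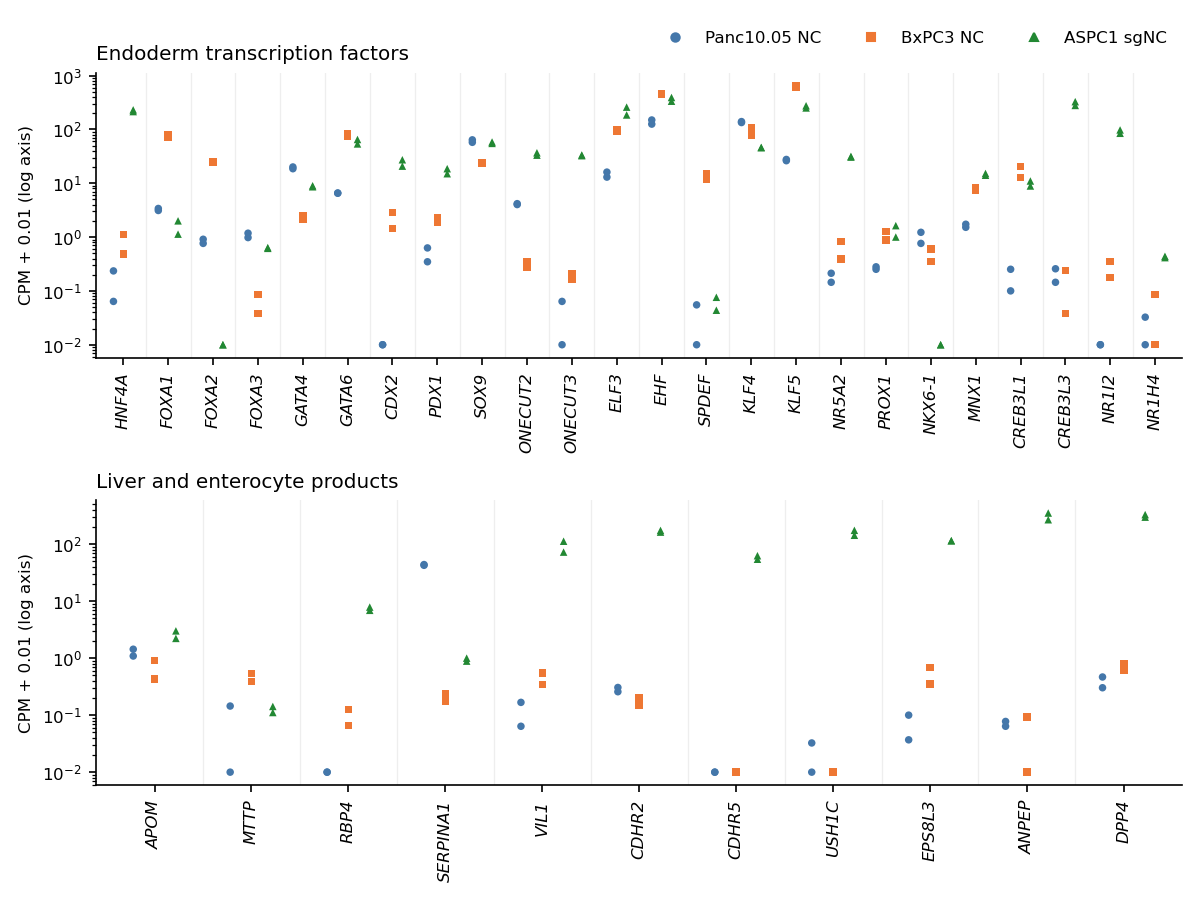
Each point is 1 control library, with CPM + 0.01 on a log axis, for tested members of the endoderm factor list and of the list of liver and enterocyte products; circles are Panc10.05 NC, squares BxPC3 NC and triangles ASPC1 sgNC. HNF4A, CREB3L3 and NR1I2 reach 84.8 CPM or more in ASPC1 alone, whereas FOXA1 and FOXA2 are highest in BxPC3.

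The promoters of genes that were high in ASPC1 can be read for letters that HNF4 proteins bind. The stretches below are shown because each holds the letters CAAAGTCCA or their reverse complement, printed in capitals, just before the start site of a gene that was at least 2-fold higher in ASPC1 than in both other lines; they were picked after the values were seen. Both are the gene's own strand, 5′ to 3′, from RefSeq's promoter windows on GRCh38.p14. MYO1A is the brush border myosin (chr12:57050130-57050229) and MUC13 a membrane mucin of the gut (chr3:124934752-124934851).
MYO1A: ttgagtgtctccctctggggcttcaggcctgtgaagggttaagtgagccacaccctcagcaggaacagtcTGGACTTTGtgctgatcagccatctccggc
MUC13: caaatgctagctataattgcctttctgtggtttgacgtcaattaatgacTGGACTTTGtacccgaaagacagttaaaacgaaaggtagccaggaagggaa
In both the letters stand as the reverse complement. MYO1A was at 0.0901 and 0.296 CPM in Panc10.05 NC, 0.153 and 0.224 CPM in BxPC3 NC and 135 and 155 CPM in ASPC1 sgNC. MUC13 was present in every line, at 77.9 and 73.9 CPM in Panc10.05 NC, 10.8 and 8.83 CPM in BxPC3 NC and 137 and 174 CPM in ASPC1 sgNC.

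The windows run from 250 bases before to 50 bases after a start site, and 1040 of 1808 genes at least 2-fold higher in ASPC1 matched the table by symbol, with 1585 windows. The letters, searched on both strands, occurred in 8 of these windows (0.505%), against 0.384% of all 35116 windows in the table and 0.337% of the windows of tested genes. They were more frequent among genes at least 2-fold lower in BxPC3, with 0.948% of 949 windows. These shares are descriptions with no test, and a match is not a binding site.

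Several genes of the enterocyte surface were expressed in ASPC1 at levels the other lines did not approach. CDHR2, a brush border cadherin, was at 0.248 and 0.296 CPM in Panc10.05 NC, 0.191 and 0.140 CPM in BxPC3 NC and 163 and 175 CPM in ASPC1 sgNC. ANPEP, a peptidase of the brush border, was at 3 and 2 counts in Panc10.05 NC, 0 and 3 counts in BxPC3 NC and 353 and 269 CPM in ASPC1 sgNC. DPP4, another, was at 0.293 and 0.458 CPM in Panc10.05 NC, 0.612 and 0.782 CPM in BxPC3 NC and 298 and 331 CPM in ASPC1 sgNC. In both, the ASPC1 libraries lay above every other library by more than 100 CPM. USH1C, which holds microvilli together with CDHR2 and CDHR5, was at 1 and 0 counts in Panc10.05 NC, 0 counts in both BxPC3 NC libraries and 144 and 175 CPM in ASPC1 sgNC. CDHR5 was at 0 counts in all Panc10.05 NC and BxPC3 NC libraries and 62.9 and 54.5 CPM in ASPC1 sgNC, at least 791-fold higher in ASPC1 than in Panc10.05. VIL1, the villin of the microvillus core, was at 0.158 and 0.0538 CPM in Panc10.05 NC, 0.535 and 0.335 CPM in BxPC3 NC and 72.7 and 113 CPM in ASPC1 sgNC. The actin regulator EPS8L3 was at 0.0585, 0.507 and 115 CPM on average in Panc10.05, BxPC3 and ASPC1. Of the 32 liver and enterocyte products listed, 21 were not tested, and 13 had 3 counts or fewer in every control library, among them APOB, APOA2, TTR and ALB. Of the 11 tested, 9 were higher and 1 lower in ASPC1 than in Panc10.05, and 10 higher and 1 lower than in BxPC3 (medians 9.72, or 9.63 with bounds and 7.77). SERPINA1, the liver's antitrypsin, went against that direction: it was at 42.6 and 43.9 CPM in Panc10.05 NC, 0.229 and 0.168 CPM in BxPC3 NC and 0.992 and 0.878 CPM in ASPC1 sgNC, highest in Panc10.05 (log2 fold change -5.53 with SE 0.16, adjusted p = 8.83e-20 for ASPC1 minus Panc10.05).

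Of 24 genes listed as markers of classical tumours, 23 were tested, and none of these was higher in Panc10.05 than in either other line past the threshold. 14 were higher and 0 lower in BxPC3 than in Panc10.05, with a median log2 fold change of 4.46 (4.31 with bounds). 18 were higher and 0 lower in ASPC1 than in Panc10.05, with a median of 7.94 (6.35 with bounds). CEACAM6, a surface adhesion molecule, was at 0.653 and 0.188 CPM in Panc10.05 NC, 804 and 798 CPM in BxPC3 NC and 1008 and 1159 CPM in ASPC1 sgNC. Panc10.05 lay far below the other lines. The small difference between those (log2 fold change 0.44 with SE 0.12, adjusted p = 0.00623 for ASPC1 minus BxPC3) did not pass by DESeq2 (adjusted p = 0.534). Between ASPC1 and BxPC3 the list divided, with 14 higher and 9 lower in ASPC1 (median 2.93). The intestinal lectin LGALS4, the tetraspanin TSPAN8 and the lysozyme gene LYZ stood on the ASPC1 side, at 0.0247, 0.521 and 346 CPM, at 0.0538, 1.76 and 569 CPM and at 0.0920, 0.0941 and 42.1 CPM in Panc10.05, BxPC3 and ASPC1. AGR2, a protein disulfide isomerase of mucus-making cells, stood on the BxPC3 side, at 0.113 and 0.0538 CPM in Panc10.05 NC, 261 and 242 CPM in BxPC3 NC and 14.2 and 21.4 CPM in ASPC1 sgNC. So did ANXA10, an annexin of gastric epithelium, at 0.0451 and 0.108 CPM in Panc10.05 NC, 121 and 119.9 CPM in BxPC3 NC and 0.496 and 0.439 CPM in ASPC1 sgNC.

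CDH17, the liver-intestine cadherin, ranked first by fitted fold change among genes higher in ASPC1 than in both other lines. It was at 0 and 1 counts in Panc10.05 NC, 0 counts in both BxPC3 NC libraries and 2051 and 2094 CPM in ASPC1 sgNC, at least 20882-fold higher than in BxPC3. The 4 other control libraries held 1 count in all. MUC17, a membrane mucin of the enterocyte, was at 2 and 0 counts in Panc10.05 NC, 0 counts in both BxPC3 NC libraries and 939 and 866 CPM in ASPC1 sgNC, at least 9089.5-fold higher than in BxPC3. ANXA13, the annexin of gut and kidney epithelium, was at 0 counts in all Panc10.05 NC and BxPC3 NC libraries and 172 and 203 CPM in ASPC1 sgNC. IGFBP1, an insulin-like growth factor binding protein made by liver, was at 0 counts in all Panc10.05 NC and BxPC3 NC libraries and 121 and 161 CPM in ASPC1 sgNC. TM4SF4, a tetraspanin-like membrane protein, and CNTFR, a cytokine receptor subunit, were at 86.7 and 116 CPM and at 101 and 99.2 CPM in ASPC1 and at 0 counts in all 4 other control libraries. Adjusted p-values of these 6 genes against the other lines ran up to 1.18e-07.

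The mucins divided between the lines. Of 17 mucins listed, 12 were tested. Of these, 5 were higher and 7 lower in ASPC1 than in BxPC3, beside 34.5% and 38.2% of all genes tested (median -2.40). MUC16, which carries the CA125 antigen, was at 2.95 and 2.29 CPM in Panc10.05 NC, 9.56 and 13.6 CPM in BxPC3 NC and 0 counts in both ASPC1 sgNC libraries. The membrane mucin MUC4 was at 22.4 and 22.6 CPM in Panc10.05 NC, 71.1 and 85.1 CPM in BxPC3 NC and 0.0661 and 0.135 CPM in ASPC1 sgNC. MUC1 was at 37.6, 36.7 and 5.34 CPM on average in Panc10.05, BxPC3 and ASPC1. The gel-forming mucin MUC2 was detected well above the floor in BxPC3 alone, at 14.7 and 16.2 CPM.

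BxPC3 expressed the keratins and regulators of squamous epithelium. KRT5, the keratin of basal cells, was at 1 and 0 counts in Panc10.05 NC, 5555 and 5164 CPM in BxPC3 NC and 2 and 3 counts in ASPC1 sgNC, and adjusted p was 1.16e-27 against Panc10.05 and 2.23e-27 against ASPC1. KRT6A was at 0.248 and 0.323 CPM in Panc10.05 NC, 2601 and 2455 CPM in BxPC3 NC and 0 and 1 counts in ASPC1 sgNC. KRT17, a keratin of injured and basal epithelium, was at 8.49 and 8.26 CPM in Panc10.05 NC, 3692 and 3847 CPM in BxPC3 NC and 0.0661 and 0.270 CPM in ASPC1 sgNC, and KRT13, a keratin of stratified mucosa, was at 0.119, 1625 and 0.251 CPM on average in the same order. In each of these 4 the BxPC3 libraries lay far above the 4 others and close to each other. TP63, the transcription factor that defines squamous and basal epithelium, was at 0.180 and 0.0269 CPM in Panc10.05 NC, 316 and 309.8 CPM in BxPC3 NC and 0.231 and 0.236 CPM in ASPC1 sgNC (log2 fold change 11.42 with SE 0.18, adjusted p = 2.01e-24 for BxPC3 minus Panc10.05). SOX2, a factor of foregut and squamous epithelium, was at 27.6 and 20.8 CPM in BxPC3 NC and 0 counts in all Panc10.05 NC and ASPC1 sgNC libraries, at least 326-fold higher in BxPC3 than in Panc10.05. Of the 20 keratins tested of 21 listed, 14 were higher and 4 lower in BxPC3 than in Panc10.05, and 3 higher and 14 lower in ASPC1 than in BxPC3. Median log2 fold changes were 2.72 and -2.64. KRT8 and KRT18, the keratin pair of simple epithelium, were instead highest in ASPC1, at 8103 and 7769 CPM and at 3980.3 and 3921 CPM. KRT6A, KRT6B and KRT6C are near-identical copies whose reads may be divided uncertainly.

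The basal-like list followed the keratins. Of 25 genes, 24 were tested, and 20 were higher and 2 lower in BxPC3 than in Panc10.05, with a median log2 fold change of 4.44. 1 was higher and 20 were lower in ASPC1 than in BxPC3, with a median of -8.01 (-6.51 with bounds). The calcium-binding S100A2 was at 16.2 and 16.9 CPM in Panc10.05 NC, 974 and 1076 CPM in BxPC3 NC and 11.9 and 6.62 CPM in ASPC1 sgNC. The surface protein LY6D was at 0.113 and 0.350 CPM in Panc10.05 NC, 258 and 314 CPM in BxPC3 NC and 0 and 2 counts in ASPC1 sgNC. The serpin SERPINB3, which shares sequence with SERPINB4, was at 1 and 0 counts in Panc10.05 NC, 119 and 151 CPM in BxPC3 NC and 0 counts in both ASPC1 sgNC libraries. CST6 and UCA1 were instead highest in Panc10.05. CST6, a cysteine protease inhibitor, was at 285 and 325 CPM in Panc10.05 NC, 0 and 3 counts in BxPC3 NC and 0 counts in both ASPC1 sgNC libraries. UCA1, a long noncoding RNA, was at 499 and 514 CPM in Panc10.05 NC, 2.71 and 3.49 CPM in BxPC3 NC and 0.364 and 0.405 CPM in ASPC1 sgNC (log2 fold change -7.33 with SE 0.12, adjusted p = 1.66e-24 for BxPC3 minus Panc10.05). Against ASPC1, Panc10.05 was higher in 14 and lower in 6 of the 24 tested (median -2.11, or -1.43 with bounds for ASPC1 minus Panc10.05). BxPC3 was thus higher than Panc10.05 for most tested genes of both the classical and the basal-like list.

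**Figure D3:**
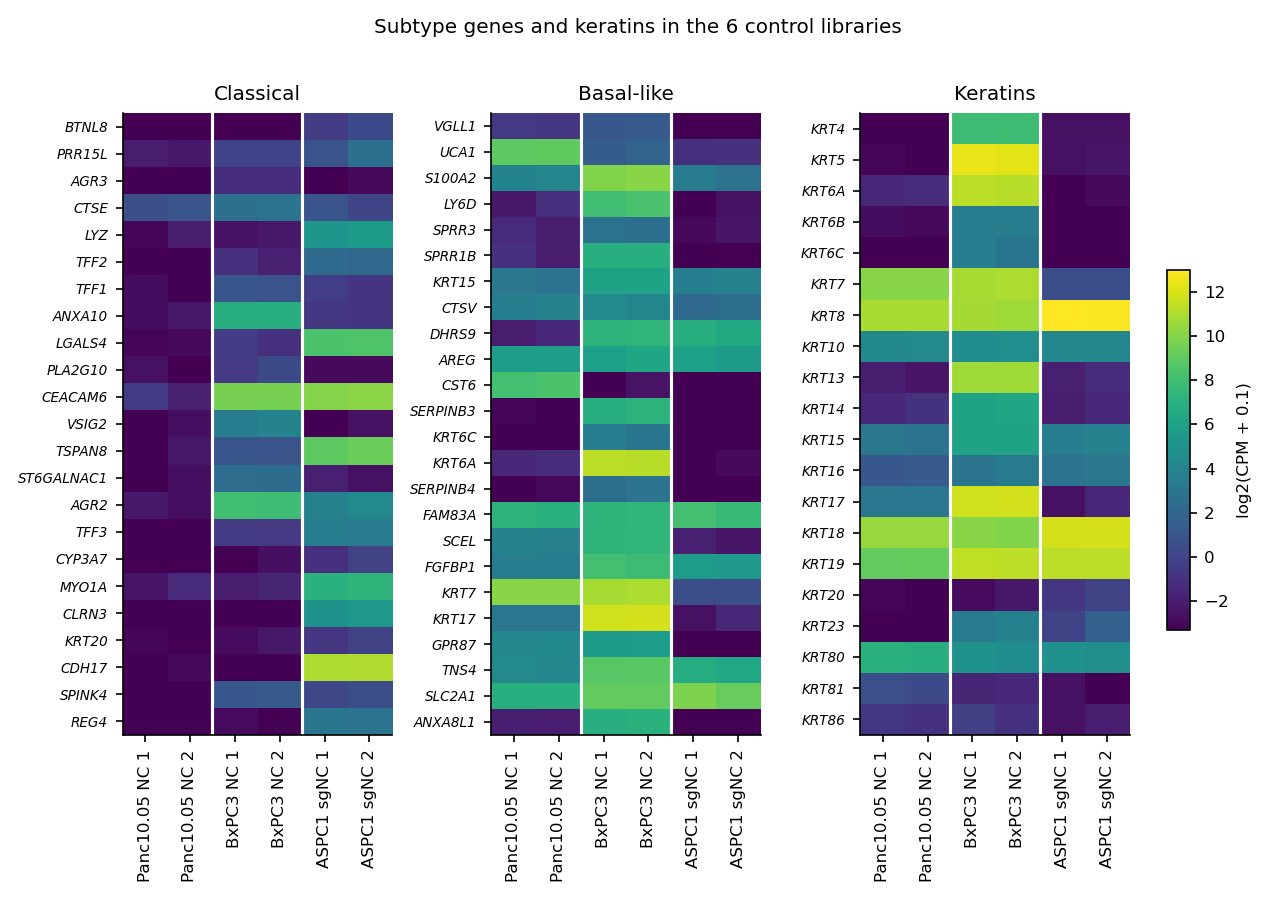
Colour gives log2(CPM + 0.1) in each of the 6 control libraries for tested genes of the classical, basal-like and keratin lists. CEACAM6, LGALS4 and TSPAN8 are low in Panc10.05, KRT5, KRT6A, KRT13 and KRT17 are high in BxPC3 alone, and CST6 and UCA1 are high in Panc10.05 alone.

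Among genes outside the lists, FAT2, a protocadherin of squamous epithelium, was at 257 and 262 CPM in BxPC3 and 0 counts in the other 4 libraries, at least 2588-fold higher than in ASPC1. MIR205HG, the host transcript of an epithelial microRNA, was at 208 and 171 CPM, and SERPINB13, a serpin of squamous epithelium, at 113 and 110.4 CPM, both with 0 counts in the other lines. LDHB, the lactate dehydrogenase subunit that most tissues use, was at 195 and 186 CPM in BxPC3. Neither Panc10.05 nor ASPC1 had a single LDHB count. MAGEA3, a cancer-testis antigen with the near-identical copy MAGEA6, was at 118 and 121 CPM in BxPC3 and 0 counts elsewhere.

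Among mesenchymal genes, VIM and ZEB1 were highest in ASPC1, whereas FN1 was lowest there. VIM, the intermediate filament of mesenchyme, was at 3.29 and 4.87 CPM in Panc10.05 NC, 37.6 and 49.4 CPM in BxPC3 NC and 4301 and 3664 CPM in ASPC1 sgNC (log2 fold change 6.51 with SE 0.23, adjusted p = 1.51e-06 for ASPC1 minus BxPC3). ZEB1, a repressor of epithelial genes, was at 9.26 and 9.47 CPM in Panc10.05 NC, 0.115 and 0.335 CPM in BxPC3 NC and 44.7 and 42.7 CPM in ASPC1 sgNC: it was lowest in BxPC3 and highest in ASPC1. The adhesion gene CDH1, E-cadherin, was at 151 and 134 CPM in Panc10.05 NC, 474 and 474 CPM in BxPC3 NC and 37.2 and 67.3 CPM in ASPC1 sgNC. It was lower in ASPC1 than in BxPC3 (log2 fold change -3.18 with SE 0.34, adjusted p = 0.00261), and the ASPC1 libraries differed from each other more than those of the other lines did. The call against Panc10.05 (log2 fold change -1.45 with SE 0.33, adjusted p = 0.0237) was lost on leaving out either BxPC3 or either Panc10.05 library (adjusted p = 0.0548 to 0.0698). EPCAM, a general epithelial marker, was highest in ASPC1, at 290.2 and 295 CPM in Panc10.05 NC, 114 and 103 CPM in BxPC3 NC and 521 and 660.1 CPM in ASPC1 sgNC. KRT7, the keratin of pancreatic duct, was at 1081 and 1113 CPM in Panc10.05 NC, 1903 and 2066 CPM in BxPC3 NC and 1.42 and 1.38 CPM in ASPC1 sgNC. FN1, fibronectin, an extracellular protein of mesenchyme, was lowest in ASPC1, at 95.4 and 83.0 CPM in Panc10.05 NC, 34.0 and 42.4 CPM in BxPC3 NC and 2 and 1 counts in ASPC1 sgNC. AXL, a receptor tyrosine kinase linked to mesenchymal state, was at 839 and 845 CPM in Panc10.05 NC, 136 and 148 CPM in BxPC3 NC and 161 and 176 CPM in ASPC1 sgNC, highest in Panc10.05. Of 18 squamous and mesenchymal regulators, 14 were tested. In ASPC1 against Panc10.05, 7 were higher and 4 lower, beside 36.2% and 35.9% of all genes tested (median 0.75, or 1.39 with bounds). Against BxPC3, 4 were higher and 7 lower in ASPC1, beside 34.5% and 38.2% (median -1.06, or -0.45 with bounds).

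The genes named as lower in ASPC1 had 0 counts in both of its control libraries. LCP1, the actin bundler L-plastin, was at 74.7 and 63.4 CPM in Panc10.05 NC, 692 and 666 CPM in BxPC3 NC and 0 counts in both ASPC1 sgNC libraries. The glycosyltransferase GALNT3 was at 76.9 and 67.7 CPM in Panc10.05 and 63.2 and 64.7 CPM in BxPC3. TMEM30B, a flippase subunit, was at 124 and 110.5 CPM and 138 and 139 CPM in the same lines.

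Most interferon-stimulated genes were lower in ASPC1 than in both other lines. Of 43 genes listed and tested, 25 were lower and 10 higher in BxPC3 than in Panc10.05, with a median log2 fold change of -0.50, or -0.48 with bounds. In ASPC1, 38 were lower and 2 higher than in Panc10.05 (median -2.58), and 35 lower and 2 higher than in BxPC3 (median -2.14). IFIT3, an antiviral protein that binds RNA complexes, was at 689.8 and 799 CPM in Panc10.05 NC, 98.6 and 118 CPM in BxPC3 NC and 27.6 and 48.4 CPM in ASPC1 sgNC (log2 fold change -4.29 with SE 0.36, adjusted p = 0.00115 for ASPC1 minus Panc10.05). ISG15, a ubiquitin-like modifier, was at 470.0 and 538 CPM in Panc10.05 NC, 137 and 159.8 CPM in BxPC3 NC and 29.4 and 40.6 CPM in ASPC1 sgNC. IFI27 and MX2 had 242, 301 and 0.836 CPM and 22.9, 103 and 0.152 CPM on average in Panc10.05, BxPC3 and ASPC1, so that the 2 HNF4A-low lines expressed them and ASPC1 had little. TRIM22, XAF1 and GBP1 were highest in BxPC3, at 19.5 and 25.6 CPM, 54.4 and 68.6 CPM and 46.9 and 51.8 CPM. The 2 genes higher in ASPC1 than in both other lines were OAS1 and IRF7. OAS1, an RNA sensor, was at 99.6 and 108 CPM in Panc10.05 NC, 53.3 and 65.6 CPM in BxPC3 NC and 227 and 286 CPM in ASPC1 sgNC. IRF7, a transcription factor of the interferon response, was at 0 and 1 counts in Panc10.05 NC, 0 counts in both BxPC3 NC libraries and 13.9 and 13.5 CPM in ASPC1 sgNC. IRF7 thus stood at the floor in Panc10.05 and BxPC3, where most of its list was higher than in ASPC1.

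The class I heavy chains HLA-B and HLA-C were highest in Panc10.05 and lowest in ASPC1. HLA-B, a class I heavy chain, was at 1827 and 1795 CPM in Panc10.05 NC, 116 and 125 CPM in BxPC3 NC and 11.6 and 12.5 CPM in ASPC1 sgNC (log2 fold change -3.91 with SE 0.08, adjusted p = 3.5e-22 for BxPC3 minus Panc10.05; log2 fold change -7.23 with SE 0.10, adjusted p = 2.32e-25 for ASPC1 minus Panc10.05). HLA-C was at 1311, 265 and 27.0 CPM on average in Panc10.05, BxPC3 and ASPC1. NLRC5, the transactivator of class I genes, was at 113 and 95.4 CPM in Panc10.05 NC, 13.7 and 15.4 CPM in BxPC3 NC and 16.6 and 14.4 CPM in ASPC1 sgNC. B2M, the shared light chain, at 1283, 1363 and 404 CPM on average, missed the threshold in BxPC3 against Panc10.05 (log2 fold change 0.09 with SE 0.08, adjusted p = 0.329) and was lower in ASPC1 (log2 fold change -1.67 with SE 0.08, adjusted p = 6.37e-15). Of 18 genes tested of 19 listed, 14 were lower and 1 higher in ASPC1 than in Panc10.05, with 14 and 1 in BxPC3 (medians -1.76 and -1.31, or -1.40 with bounds). Against BxPC3, 5 were higher in ASPC1 and 12 lower (median -1.05), and the higher ones were HHLA2 and the class II genes CIITA, CD74, HLA-DRA and HLA-DMA. CD74, the class II invariant chain, was at 1.89 and 1.51 CPM in Panc10.05 NC, 0.879 and 0.615 CPM in BxPC3 NC and 1.22 and 1.38 CPM in ASPC1 sgNC. The calls of CD74 and CIITA were lost by DESeq2 (adjusted p = 0.111 and 0.122) and on leaving out replicate 2 of ASPC1 or of BxPC3 (CD74, adjusted p = 0.0989 to 0.226) or those libraries or replicate 1 of ASPC1 (CIITA, adjusted p = 0.0674 to 0.208). That of HLA-DRA was lost without replicate 1 of ASPC1 (adjusted p = 0.155). CD274, the checkpoint ligand PD-L1, was at 151 and 142 CPM in Panc10.05 NC, 8.79 and 9.69 CPM in BxPC3 NC and 0 and 1 counts in ASPC1 sgNC. HHLA2, another checkpoint ligand of the B7 family, ran opposite, at 1 and 0 counts in Panc10.05 NC, 2 and 3 counts in BxPC3 NC and 82.3 and 82.5 CPM in ASPC1 sgNC. HLA genes vary between people, and reads may be lost or moved between HLA genes in counting, so their levels are uncertain.

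**Figure D4:**
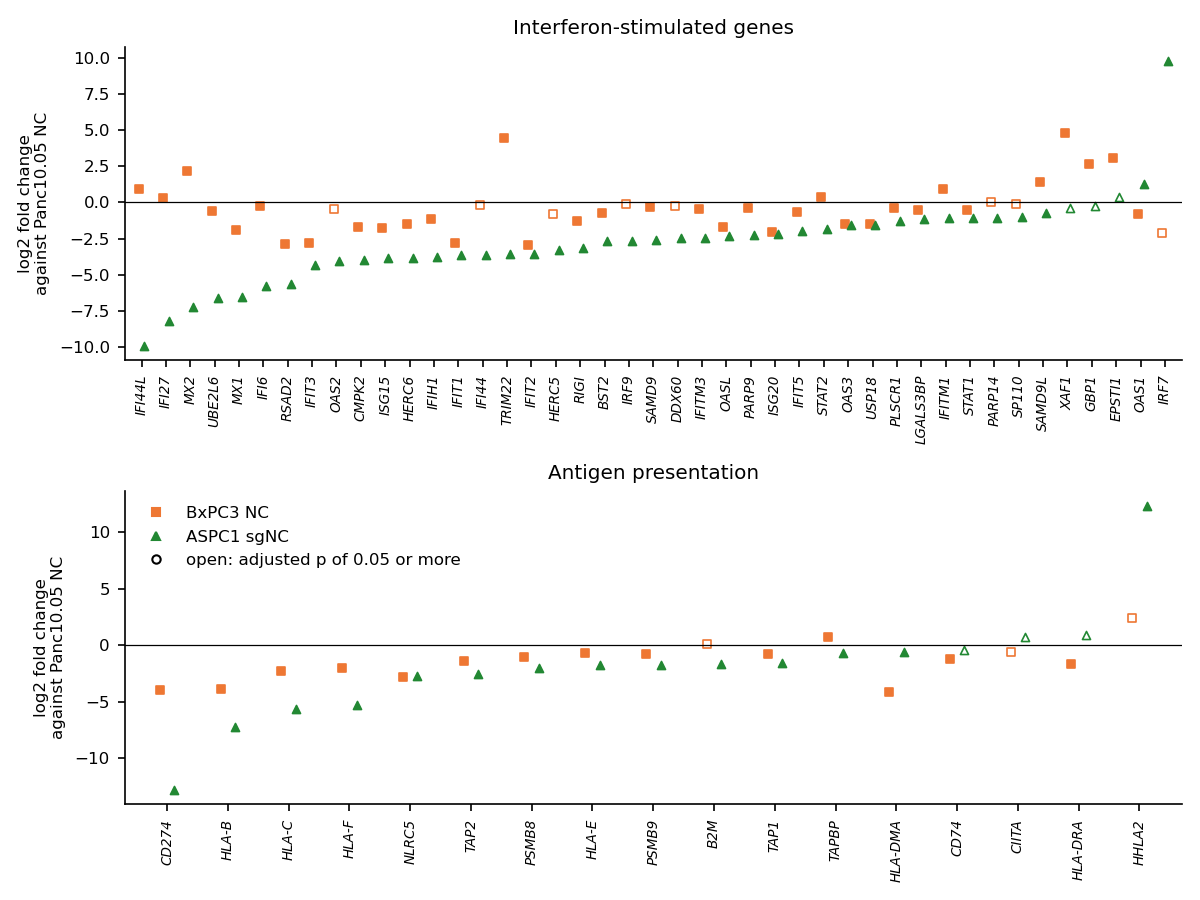
Points give the log2 fold change against Panc10.05 NC of tested interferon-stimulated and antigen presentation genes, in BxPC3 NC (squares) and ASPC1 sgNC (triangles); open points did not pass an adjusted p of 0.05. 38 of 43 interferon genes lie below 0 past the threshold in ASPC1, and IRF7 and HHLA2 lie above 0.

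Panc10.05 also had genes that the other lines lacked. PLCB4, a phospholipase of signalling through G proteins, was at 199 and 207 CPM in Panc10.05 NC, 0 counts in both BxPC3 NC libraries and 3 and 2 counts in ASPC1 sgNC. GJC1, the gap junction connexin 45, and GPX3, a secreted glutathione peroxidase, were at 74.6 and 67.0 CPM and at 31.9 and 31.5 CPM in Panc10.05 and at 3 counts or fewer in every other control library. DDX43, an RNA helicase of germ cells, and the zinc finger gene ZNF671 were at 11.9 and 12.5 CPM and 9.67 and 11.5 CPM, with 0 counts in BxPC3 and ASPC1. CSF1R, the macrophage growth factor receptor, was at 33.8 and 28.0 CPM in Panc10.05 NC, 0.115 and 0.112 CPM in BxPC3 NC and 1 and 3 counts in ASPC1 sgNC. The genes named as lower in Panc10.05 had 0 counts in both of its libraries. NNT, the mitochondrial transhydrogenase that makes NADPH, was at 145 and 137 CPM in BxPC3 and 108 and 113 CPM in ASPC1, at least 1895-fold and 1486-fold higher than in Panc10.05. DSG3, a desmosomal cadherin, was at 219 and 229 CPM in BxPC3 and 85.9 and 86.8 CPM in ASPC1. The basement membrane protein NID1 was at 75.8 and 74.8 CPM and 60.5 and 63.1 CPM in these lines, and the adhesion molecule KIRREL1 at 68.6 and 69.6 CPM and 357 and 284 CPM.

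Genes that respond to the oxidative stress factor NRF2, and the aldo-keto reductases among them, were mostly lower in Panc10.05. Of 22 tested, 16 were higher and 4 lower in BxPC3 than in Panc10.05, and 16 higher and 6 lower in ASPC1 (medians 0.91 and 1.22). AKR1C1, a reductase of steroids with the similar copy AKR1C2, was at 1 and 0 counts in Panc10.05 NC, 123 and 128 CPM in BxPC3 NC and 127 and 124 CPM in ASPC1 sgNC. AKR1C3 was at 0.293 and 0.269 CPM in Panc10.05 NC, 89.3 and 87.7 CPM in BxPC3 NC and 371 and 396 CPM in ASPC1 sgNC. ALDH3A1, an aldehyde dehydrogenase, was at 0 counts in both Panc10.05 NC libraries, 259 and 295 CPM in BxPC3 NC and 43.3 and 50.2 CPM in ASPC1 sgNC, at least 3738-fold higher in BxPC3 than in Panc10.05. TXNRD1, thioredoxin reductase, was lowest in BxPC3, at 532, 150.0 and 853 CPM in Panc10.05, BxPC3 and ASPC1, and HMOX1, heme oxygenase, was highest in Panc10.05, at 16.8, 1.98 and 10.96 CPM in that order. ABCC2, an apical exporter of conjugates, was at 1.82 and 1.35 CPM in Panc10.05 NC, 1.53 and 1.70 CPM in BxPC3 NC and 265 and 232 CPM in ASPC1 sgNC.

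The EGF receptor ligands and receptors had no common order across the lines. EREG, an EGF receptor ligand, was at 1 and 0 counts in Panc10.05 NC, 55.7 and 63.3 CPM in BxPC3 NC and 78.1 and 62.6 CPM in ASPC1 sgNC. NRG1, the ligand of ERBB3, was at 1 and 0 counts in Panc10.05 NC, 113 and 126 CPM in BxPC3 NC and 3 and 1 counts in ASPC1 sgNC. EGFR was at 294, 617 and 895 CPM and ERBB3 at 88.0, 100.1 and 245 CPM on average in Panc10.05, BxPC3 and ASPC1 in that order. EGFR was higher in ASPC1 than in both other lines. For ERBB3 the call against BxPC3 (adjusted p = 0.0173) was lost on leaving out either BxPC3 library (adjusted p = 0.0688 to 0.0725). Of the genes of Wnt signalling and stem cells, 10 of 15 tested were higher and 2 lower in ASPC1 than in Panc10.05 (median 2.47, or 2.74 with bounds). This stands beside 36.2% and 35.9% of all genes tested. In BxPC3 against Panc10.05, 8 were higher and 2 lower, beside 38.7% and 35.4% (median 0.49, or 0.59 with bounds). Between ASPC1 and BxPC3 the list divided, with 7 higher and 4 lower in ASPC1, beside 34.5% and 38.2% (median -0.12, or 0.46 with bounds). LGR5, the receptor that marks intestinal stem cells, was at 1 and 0 counts in Panc10.05 NC, 0 counts in both BxPC3 NC libraries and 37.2 and 49.1 CPM in ASPC1 sgNC. AXIN2, a feedback gene of the pathway, was at 0.270 and 0.108 CPM in Panc10.05 NC, 0.153 and 0.140 CPM in BxPC3 NC and 9.12 and 6.35 CPM in ASPC1 sgNC. ASCL2, a transcription factor of the same stem cells, stood in BxPC3 instead, at 0 counts in both Panc10.05 NC libraries, 5.01 and 5.64 CPM in BxPC3 NC and 1 and 0 counts in ASPC1 sgNC. LEF1, a nuclear partner of beta-catenin, was at 1 and 0 counts in Panc10.05 NC, 5.62 and 5.89 CPM in BxPC3 NC and 0.264 and 0.236 CPM in ASPC1 sgNC.

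Several genes often altered in PDAC were silent in 1 line. SMAD4, the shared mediator of TGF-beta signalling, was at 31.1 and 29.2 CPM in Panc10.05 NC, 0 counts in both BxPC3 NC libraries and 17.6 and 18.4 CPM in ASPC1 sgNC. CDKN2A, which encodes the cell cycle inhibitor p16, was at 113 and 124 CPM in Panc10.05 NC, 0 counts in both BxPC3 NC libraries and 73.4 and 98.1 CPM in ASPC1 sgNC. MTAP, a neighbouring gene of methionine salvage, was at 101 and 88.4 CPM in Panc10.05 NC, 0 counts in both BxPC3 NC libraries and 63.0 and 63.4 CPM in ASPC1 sgNC. CDKN2B, which encodes the related inhibitor p15, was at 56.9 and 28.5 CPM on average in Panc10.05 and ASPC1 and 0 counts in BxPC3. Each was thus expressed in 4 of the 6 control libraries and had 0 counts in both BxPC3 libraries. PSAP, the precursor of lysosomal saposins, was at 1165 and 1105 CPM in Panc10.05 NC, 0 counts in both BxPC3 NC libraries and 813 and 874 CPM in ASPC1 sgNC, at least 11434-fold higher in Panc10.05 than in BxPC3. At that level, no more than 0.0101% of Panc10.05 reads could lie in a BxPC3 library before 3 counts of PSAP would be exceeded. MAP2K4, a stress kinase gene, was at 38.7 and 37.8 CPM in Panc10.05 NC, 1.95 and 2.40 CPM in BxPC3 NC and 0 counts in both ASPC1 sgNC libraries. TGFBR2, a receptor of the TGF-beta pathway, was at 13.2 and 12.2 CPM in Panc10.05 NC, 139.6 and 168 CPM in BxPC3 NC and 590.0 and 678 CPM in ASPC1 sgNC.

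Many silent genes of BxPC3 lay next to each other. Among protein-coding genes at 1 CPM or more in both libraries of both other lines, neighbours in order of start position at 3 counts or fewer in both BxPC3 libraries formed 6 runs of 2 or more, with 20 genes, of 37 such genes in all. One run held KLHL9, MTAP, CDKN2A, CDKN2B and DMRTA1 on chromosome 9 (21329671 to 22455740), in GRCh38 coordinates of GENCODE v29. The next expressed genes on either side, FOCAD and CAAP1, were at 27.9 and 22.8 CPM in BxPC3. The next held ME2, ELAC1, SMAD4 and MEX3C on chromosome 18 (50878734 to 51218304), between SKA1 at 22.1 CPM and MBD2 at 114 CPM. Another held RIPK4, PRDM15, C2CD2 and ZBTB21 on chromosome 21 (41739369 to 42010387). TNFSF15, TNC and ASTN2 were neighbours by start position on chromosome 9 (114784635 to 117415070), but TRIM32, which starts within the span of ASTN2, was at 31.1 CPM in BxPC3, so that stretch was not silent throughout. On chromosome 10, VSIR and PSAP (71747559 to 71851375) and ASCC1 and ANAPC16 (72096032 to 72235860) stood on either side of CHST3, at 0.306 and 0.196 CPM in BxPC3 against 59.2 CPM in Panc10.05. Across all 6 BxPC3 libraries, including those with an HNF4α isoform, 18 of the 20 genes had 0 counts, and ASCC1 and ASTN2 reached 9 and 6 counts. DNA was not measured.

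**Figure D5:**
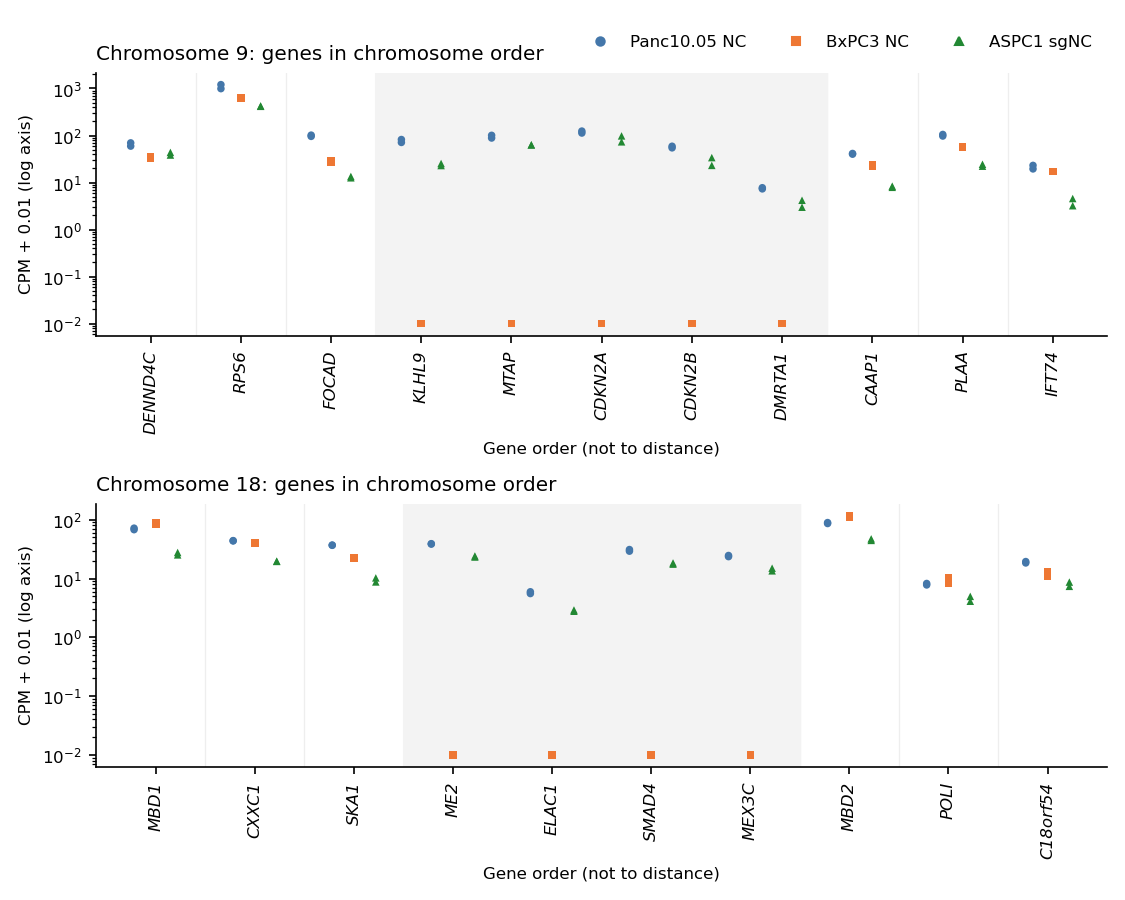
Each point is 1 control library, with CPM + 0.01 on a log axis; genes of at least 1 CPM in the other lines are set out in chromosome order, and the shaded genes form a run. The 5 shaded genes of chromosome 9 and the 4 of chromosome 18 lie at 0 counts in BxPC3 NC, while their neighbours are expressed in every library.

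The other lines had runs of at most 3 genes. By the same rule, 130 genes were at 3 counts or fewer in Panc10.05 and 158 in ASPC1. Panc10.05 had 3 runs, each of 2 genes: AKR1C1 with AKR1C2, the overlapping UGT1A10 and UGT1A1, and TCEAL9 with BEX3 on chromosome X. ASPC1 had 11 runs with 24 genes, or 6 runs where 0 counts were required and 3 where the other lines had to reach 5 CPM. Among the 11 were ZNF18 with MAP2K4 on chromosome 17 (11977439 to 12143830) and CD274 with PDCD1LG2, both genes of checkpoint ligands, on chromosome 9 (5450503 to 5571254). 6 of the ASPC1 runs lay on chromosome 19, and 12 of their 14 genes encode zinc finger proteins. Over all protein-coding genes of chromosome 19 with a mean of 1 CPM or more, the median log2 fold change of ASPC1 against Panc10.05 was -0.81 (900 genes), the lowest of any chromosome in this comparison. Against BxPC3 it was -0.43, and chromosomes 14 and 15 were lower, at -0.48 and -0.57. BxPC3 itself was at -0.32 against Panc10.05 on chromosome 19.

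As a list, proliferation genes differed by smaller amounts than all genes tested. TOP2A, the topoisomerase of dividing cells, was at 409.9 and 407 CPM in Panc10.05 NC, 379 and 449.8 CPM in BxPC3 NC and 409.8 and 425 CPM in ASPC1 sgNC. MCM7, a subunit of the replicative helicase, was at 437, 432 and 429.9 CPM on average in Panc10.05, BxPC3 and ASPC1. Neither passed the threshold in any comparison, except MCM7 in ASPC1 against Panc10.05 under scaling by library totals (log2 fold change -0.21, adjusted p = 0.0251). Their log2 fold changes lay between -0.02 and 0.03. Most of the 32 cell cycle genes did pass, with 9 higher and 15 lower in BxPC3 than in Panc10.05, beside 38.7% and 35.4% of all genes. In ASPC1, 11 were higher and 11 lower than in Panc10.05 (beside 36.2% and 35.9%), and 17 and 8 against BxPC3 (beside 34.5% and 38.2%). By at least 2-fold, 28.1%, 18.8% and 15.6% differed, beside 41.4%, 41.3% and 40.2% of all genes. The median absolute log2 fold change of the 32 was 0.44, 0.58 and 0.41 in the 3 comparisons, against 0.83, 0.85 and 0.79 over all genes tested. CDKN1A, the inhibitor p21, was at 93.0 and 90.8 CPM in Panc10.05 NC, 185 and 221 CPM in BxPC3 NC and 24.0 and 22.02 CPM in ASPC1 sgNC, lowest in ASPC1.

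Each line expressed some epithelial markers: EPCAM, KRT8, KRT18 and KRT19 were at 103 CPM or more in every control library. They belong to a list of 14 genes of pancreatic duct and epithelium. Of these 14, 1 in Panc10.05, 1 in BxPC3 and 4 in ASPC1 had 3 counts or fewer in both control libraries. KRT7 and CDH1, also listed, were lowest in ASPC1, as given above. Of the 12 tested, 6 were higher and 4 lower in ASPC1 than in Panc10.05, beside 36.2% and 35.9% of all genes tested. Against BxPC3, 6 were higher and 5 lower in ASPC1, beside 34.5% and 38.2%. Most defining genes of other cell types had 3 counts or fewer in both control libraries of Panc10.05 and in both of ASPC1, and fewer did in BxPC3. The part of those above 3 counts in the differences above was not tested. Of 14 acinar, 12 endocrine, 10 fibroblast, 10 leukocyte and 6 endothelial genes listed, 3, 3, 6, 5 and 4 had enough counts to test. Insulin, PTPRC, COL1A2 and PTF1A were not among them. In that order, 10, 8, 2, 1 and 2 of the listed genes had 3 counts or fewer in both BxPC3 libraries. The numbers were 13, 10, 6, 5 and 3 in Panc10.05 and 13, 10, 3, 7 and 4 in ASPC1. All tested acinar, fibroblast and endothelial genes were higher in BxPC3 than in Panc10.05, beside 38.7% of all genes. Of the endocrine genes, 2 were higher and 1 lower, and of the leukocyte genes 2 and 2. Summed levels of the fibroblast list were 5.81 and 6.30 CPM in the Panc10.05 libraries, 20.7 and 21.8 in BxPC3 and 174 and 190.1 in ASPC1, where LUM, a matrix proteoglycan, made up nearly all of it at 172 and 187 CPM. The bile salt lipase CEL was at 1.73 and 1.88 CPM in Panc10.05 NC, 16.7 and 18.4 CPM in BxPC3 NC and 0.298 and 0.439 CPM in ASPC1 sgNC. CDH5, a cadherin of endothelium, was at 4.93 and 4.64 CPM in BxPC3 and 0 counts in both other lines.

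The line differences were followed over all 26 libraries. Of 1808 genes at least 2-fold higher in the ASPC1 controls than in both other controls, 1256 (69.5%) were higher in all 14 ASPC1 libraries than in all 12 of the other lines. The share was 79.5% for BxPC3 and 71.6% for Panc10.05. For genes at least 2-fold lower than in both other controls, the shares were 64.2% in ASPC1, 63.6% in BxPC3 and 70.9% in Panc10.05. These shares include the control libraries that chose the genes, and the share over all genes tested was not computed. For BxPC3 and for Panc10.05, 6 libraries were set against 20, so the shares are not to be compared between lines. CDH17 ran from 1048 to 2057 CPM over the ASPC1 libraries, with 1048 to 1394 CPM under the guides to both promoters, on a scale shared by all 26 libraries. MUC17 ran lower under those guides, at 30.6 to 73.9 CPM, and reached 75.3 CPM in BxPC3 with an isoform, so the lines overlapped for this gene. IGFBP1, at 155 to 184 CPM, overlapped there with the ASPC1 controls, at 118 and 156 CPM.

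Several named genes overlap exons of another gene, and the strand setting of the counting is not given in the sources used here, so their counts may include reads of the partner. Among these are GATA6, SMAD4, CDKN2A, MTAP, NNT, DDX43, FAT2, LDHB, MIR205HG, ANAPC16 (with ASCC1), MUC17 and TMEM30B. Other printed genes may also share exons.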

How the data were processed

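RNA was sequenced from 6 control libraries of 3 cell lines, 2 per line, with poly(A) selection and a directional kit, per the labels. The authors deposited whole-number counts per Ensembl gene in 1 table per line, raw and with no normalization. The submitters' processing notes name the build GRCh38 and the tools STAR 2.7.9a, cutadapt 1.16, featureCounts 1.6.3 and DESeq2 1.36.0. The annotation and strand setting are not given in the sources used here. The tables were joined on the 62679 identifiers they share, and symbols were found for 99.91%.

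The 6 libraries were fitted together with edgeR 4.0.16 (R 4.3.3): filterByExpr by line, TMM scaling, glmQLFit and glmQLFTest with robust estimation, and Benjamini-Hochberg adjustment over 18339 genes in each of 3 comparisons. The SE is the unsigned log2 fold change over the root of F. CPM values use the same scaling. The floor was 3 counts per library. Floors cover counting error only. Chi-square per degree of freedom between replicates was 6.70 to 13.1, so no library repeats another. DESeq2 1.42.0, other scalings and filters, a replicate block and leaving out each library were tried as alternatives. Gene positions are from GENCODE v29, and promoter windows from RefSeq, matched by symbol.

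Named genes are, per line, the 6 higher and 4 lower against both other lines with the largest smaller fold change and at least 10 CPM, up to 4 members of each of 23 gene lists with the widest range, and HNF4A, GATA6, SMAD4, CDKN2A, MTAP and a few genes not reported here; other list members were named after their values were seen. The lists were written from general knowledge. The members and lists were chosen with earlier results of these data known. Replicate numbers are shared across lines, but deviations of same-numbered libraries correlated at -0.0150 to 0.00279, and they are taken as unpaired.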

Additional observations from a re-analysis of the deposited data

How the results depend on the processing

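Scaling by library totals alone, which omits TMM, shifted the log2 fold changes of single genes by a median of -0.11 in BxPC3 against Panc10.05, -0.18 in ASPC1 against Panc10.05 and -0.07 in ASPC1 against BxPC3. No named difference reversed under any alternative. Requiring at least a 2-fold change reduced the genes past the threshold to 7590, 7579 and 7377 in these comparisons. Leaving out 1 library at a time gave 12458 to 14381, 12058 to 13495 and 12077 to 13377 genes; a line with 1 library is then assumed to vary like the others. With the replicate number as a block, 13519, 13052 and 13197 genes passed, although the numbers do not pair these libraries; the block ended the calls of CDH1 and S100A2 in ASPC1 against Panc10.05 (adjusted p = 0.0524 and 0.11), of HLA-DRA in BxPC3 against Panc10.05 (adjusted p = 0.0665) and of ERBB3 and EREG in ASPC1 against BxPC3 (adjusted p = 0.0503 and 0.0506). The other alternatives (DESeq2, RLE factors, no filter, a filter at 1 CPM, all 26 libraries, only the 2 lines compared) kept each count within 1.5 times. HNF4A in ASPC1 sgNC was at 210.1 CPM by totals alone. ASPC1 had 6 runs of silent neighbours when 0 counts were required and 3 when the other lines had to reach 5 CPM. For single genes, 87 of 5778 gene and setting pairs lost the threshold and 25 gained it. For lists whose members were divided about evenly, such as the cell cycle genes in ASPC1 against Panc10.05, the side with more members depends on the scaling. With 2 libraries per line, the spread rests on few degrees of freedom, and values under 1 CPM rest on few counts.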

Other observations

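HOX genes, which set position along the body axis, were mostly higher in ASPC1. Of 39 listed, 28 were tested: 23 were higher and 3 lower in ASPC1 than in Panc10.05, and 20 higher and 5 lower than in BxPC3 (medians 4.05, or 3.63 with bounds and 1.40). HOXA13, a posterior member, was at 0.406 and 0.673 CPM in Panc10.05 NC, 3.44 and 3.35 CPM in BxPC3 NC and 47.6 and 52.0 CPM in ASPC1 sgNC. HOXB13, another, was at 0 counts in both Panc10.05 NC libraries, 2.98 and 2.26 CPM in BxPC3 NC and 7.87 and 10.4 CPM in ASPC1 sgNC. HOXA11 was at 0 counts in all Panc10.05 NC and BxPC3 NC libraries and 21.8 and 17.9 CPM in ASPC1 sgNC. HOXB8 was at 0.158 and 0.188 CPM in Panc10.05 NC, 0.153 and 0.168 CPM in BxPC3 NC and 31.4 and 33.2 CPM in ASPC1 sgNC. HOXA5 was the reverse, at 3.88 and 3.47 CPM in Panc10.05 NC, 0.191 and 0.196 CPM in BxPC3 NC and 0.826 and 0.743 CPM in ASPC1 sgNC, highest in Panc10.05. No HOXD gene had enough counts to test.

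Claudins, the strand proteins of tight junctions, differed by line. CLDN2, which forms a cation pore, was at 0 counts in all Panc10.05 NC and BxPC3 NC libraries and 52.6 and 47.5 CPM in ASPC1 sgNC, at least 675-fold higher in ASPC1 than in Panc10.05. CLDN1, a sealing claudin, was at 2.64 and 2.53 CPM in Panc10.05 NC, 297 and 296 CPM in BxPC3 NC and 35.4 and 55.5 CPM in ASPC1 sgNC, highest in BxPC3. CLDN4 was at 356, 240.2 and 248 CPM on average in Panc10.05, BxPC3 and ASPC1. The gastric claudin CLDN18, at 0 and 1 counts in Panc10.05 NC, 1.03 and 1.90 CPM in BxPC3 NC and 0 counts in both ASPC1 sgNC libraries, was above the floor in BxPC3 alone. Among hemidesmosome genes, COL17A1, the collagen of epithelial anchoring, was lowest in Panc10.05, at 171 and 162 CPM in Panc10.05 NC, 2066 and 2241 CPM in BxPC3 NC and 2923 and 2623 CPM in ASPC1 sgNC.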
